A study of Rattus norvegicus with 8 samples.

Results

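The miR-181 family was followed in the kidneys of 8 male Big Blue rats, a Fisher 344 strain that carries a reporter transgene for mutation assays. The members were taken by name from the table of known rat miRNAs, as every row called miR-181a, miR-181b, miR-181c or miR-181d with any suffix for the arm of the hairpin. This gave 9 of the 620 rows, namely the main arms rno-miR-181a, rno-miR-181b, rno-miR-181c and rno-miR-181d (the prefix rno marks rat and is left out from here on) and the opposite arms miR-181a-1*, miR-181a-2*, miR-181b-1*, miR-181b-2* and miR-181c*. The AA group of 4 rats, 6 weeks old, received the sodium salt of aristolochic acid (AA), a plant nephrotoxin and carcinogen, by gavage, with 5 doses of 10 mg/kg per week over 12 weeks. The AA preparation was 96% pure and held 40% AAI and 56% AAII. The control group of 4 rats of the same age and strain were given sodium chloride solution (0.9%) at the same times, and all kidneys were taken 1 day after the last treatment. Small RNA from each kidney was sequenced, and the libraries held 13412373 to 15616670 reads on known miRNAs in the deposited counts. The paper states fewer reads on known rat miRNAs for all 8 samples together than each library holds here, and the source of this difference was not tested.

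A miRNA is cut from a hairpin precursor. Either arm of the hairpin can yield a small RNA, and in the names used here the asterisk marks the arm that is usually the rarer. The mature miRNA guides the silencing complex to mRNAs that pair with its seed near the 5′ end, so that miRNAs with the same seed share many potential targets. The miR-181 family is conserved in vertebrates. miR-181a is known for setting the sensitivity of T cell receptor signaling through phosphatases in developing T lymphocytes, and miR-181b is known for restraining NF-κB signaling in endothelial cells.

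The sequences show why the members are treated as a family and how far their reads can be told apart. 8 of the 9 rows were matched by name to a mature sequence of RefSeq (rat assembly GRCr8). miR-181b-2* is named only. The sequences of the 4 main arms are written 5′ to 3′ with the seed, bases 2 to 8, in capitals.
miR-181a: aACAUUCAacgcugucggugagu
miR-181b: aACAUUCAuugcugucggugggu
miR-181c: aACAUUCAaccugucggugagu
miR-181d: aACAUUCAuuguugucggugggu

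The 4 main arms carry the seed ACAUUCA, and no other mature rat sequence in the RefSeq table carries it. Differences lie in the middle and near the 3′ end. Counted from 1 at the 5′ end, with the base of the first-named miRNA written first, miR-181b differs from miR-181a by A9U, C10U and A21G. miR-181d differs from miR-181b by C12U alone. miR-181c has the sequence of miR-181a without the G at position 11 and is 22 bases long, while the other 3 are 23 bases long. The number of mismatches allowed when reads were assigned to known rat miRNAs is not given in the sources used here. Some reads of miR-181b and miR-181d, which differ at 1 position, may therefore have been counted on the other row. The same holds to a lesser degree for miR-181a and miR-181b, which differ at 3 positions. The base missing from miR-181c shifts the later bases against miR-181a, so that without a gap these 2 rows differ at many positions.

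The opposite arms are shown because each named sequence belongs to a single hairpin, with bases 2 to 8 in capitals.
miR-181a-1*: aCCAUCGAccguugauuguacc
miR-181a-2*: aCCACCAAccguugacugu
miR-181b-1*: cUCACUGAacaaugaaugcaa
miR-181c*: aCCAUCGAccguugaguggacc

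miR-181a-1* and miR-181c* share the seed CCAUCGA and differ by U16G and U19G over 22 bases, fewer positions than miR-181a and miR-181b, so that the same doubt on the assignment of reads holds for these 2 rows. The other 2 opposite arms have seeds found in no other mature sequence of the table.

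The main arms come from 6 hairpin genes in 3 pairs on the rat genome (GRCr8, all on the plus strand), each a miRNA gene of RefSeq. Mir181a-1 gives miR-181a at chr13:52037081-52037103, and Mir181b1 gives miR-181b at chr13:52037263-52037285, 182 bases apart from start to start. Mir181a2 gives the same miR-181a sequence at chr3:43025601-43025623. Mir181b2 lies beside it, and the miR-181b sequence starts there 1079 bases after that of miR-181a. miR-181c at chr19:40888314-40888335 and miR-181d at chr19:40888484-40888506 are 170 bases apart. Reads on miR-181a or miR-181b therefore cannot be assigned to the chromosome 3 or the chromosome 13 pair, whereas the opposite arms are each named for 1 hairpin, within the limits of the read assignment.

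The level of each row was expressed as CPM, the read count scaled to a common library size with TMM normalization. Each read spans a whole miRNA of 19 to 23 bases, so that CPM was not divided by length. miR-181a was the most abundant member. In the control libraries miR-181a was at 695, 616, 654 and 534 CPM, and in the AA libraries at 572, 661, 776 and 557 CPM. The highest and the second lowest of these values were both in the AA group, and the groups overlapped. The group means were 625 ± 68.8 CPM (control) and 642 ± 101 CPM (AA; SD, n = 4 each), which placed miR-181a at rank 63 of the 620 miRNAs by mean level.

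miR-181b followed at 212, 196, 188 and 167 CPM in the control libraries and at 162, 175, 173 and 143 CPM in the AA libraries. Its 3 highest values were in the control group, but the lowest control library lay below 2 of the AA libraries. The means were 191 ± 18.6 and 163 ± 14.5 CPM (SD, n = 4 each, control and AA).

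miR-181d was at 109, 94.3, 107 and 68.8 CPM in the control libraries and at 80.3, 112, 104 and 81.6 CPM in the AA libraries. The lowest value was in control library 4 and the highest in AA library 2, and the group means of 94.7 ± 18.5 and 94.7 ± 16.2 CPM (SD, n = 4 each) were the same to 3 digits. miR-181c was at 93.5, 76.1, 88.3 and 105 CPM in the control libraries and at 60.3, 72.3, 82.8 and 74.5 CPM in the AA libraries. For miR-181c the highest value was in control library 4, in which miR-181d was lowest, and the means were 90.8 ± 12.2 and 72.5 ± 9.31 CPM (SD, n = 4 each).

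In every library the order was miR-181a, miR-181b and then miR-181c and miR-181d. The ranges over the 8 libraries were separate between miR-181a and miR-181b and between miR-181b and either of the others, while miR-181c and miR-181d overlapped and did not differ beyond their spread. These levels rest on 780 to 12177 reads per library and row.

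The opposite arms were low. miR-181a-1* was at 10.6, 9.79, 8.62 and 13.2 CPM in the control libraries and at 13.4, 7.70, 13.1 and 17.6 CPM in the AA libraries. It was the most abundant opposite arm, and its lowest and highest values were both in the AA group. miR-181c* ranged from 4.34 to 7.76 CPM, miR-181a-2* from 2.66 to 5.87 CPM and miR-181b-1* from 1.80 to 5.62 CPM over the 8 libraries, and the ranges of neighbors in this order overlapped. In both groups the library numbered 4 held the highest level of each of these 4 opposite arms. These rows had 29 to 297 reads per library, so that counting error is a larger part of their spread than for the main arms.

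miR-181b-2*, the opposite arm of the second miR-181b hairpin, had 1 read in 4 libraries and 0 reads in the other 4. Over all libraries it had 4 reads against 342 of miR-181b-1*, or 1.16% of the opposite-arm reads of miR-181b (95% exact interval 0.316% to 2.93%, which covers counting error only). It was below the filter of at least 10 reads in at least 4 libraries and was not tested. At this depth no difference between the groups was detectable for this arm.

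**Figure D1:**
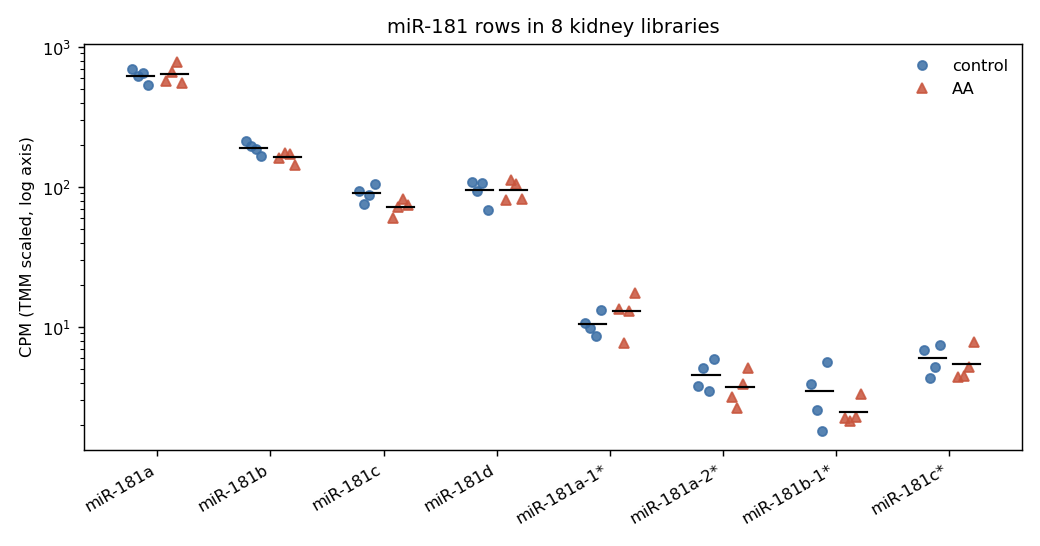
Levels of the 8 miR-181 rows that passed the read filter in 4 control libraries (circles) and 4 AA libraries (triangles), as TMM-scaled CPM on a log axis, with the group mean as a line. miR-181a lies between 534 and 776 CPM, and for each row the groups overlap.

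The comparison of the AA and control groups asks whether the long treatment with AA changed the level of the family in the kidney. None of the 8 tested members differed between the groups at an adjusted p-value of 0.05 (edgeR's quasi-likelihood test over all 367 miRNAs that passed the filter, Benjamini-Hochberg adjustment). The same test called 60 miRNAs, or 16.3% of those tested. No member had an unadjusted p under 0.05 in edgeR. DESeq2 called none after adjustment either, and its unadjusted p was 0.0432 for miR-181c. The groups overlapped in CPM for each of the 8 members, whereas 24.3% of all tested miRNAs showed no overlap. Of the members, 2 had a log2 fold change above 0 and 6 below 0, with a median of -0.18 beside 0.06 over all tested miRNAs. With total counts in place of TMM, these medians were 0.04 and 0.27, so that the scaling moved both by about the same amount.

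For miR-181a, the log2 fold change of AA over control was 0.04 (standard error 0.17, adjusted p = 0.89 from edgeR), with a 95% interval from -0.33 to 0.41. In fold terms the interval runs from 0.796 to 1.32. For miR-181d, the fold was 0.999, with an interval from 0.719 to 1.39 (adjusted p = 0.998 from edgeR). For miR-181b the value was -0.23 on the log2 scale with a standard error of 0.16 (adjusted p = 0.36, edgeR), and the interval in fold ran from 0.666 to 1.10. miR-181c had the lowest p of the members, at -0.33 on the log2 scale with a standard error of 0.19 (adjusted p = 0.27, edgeR) and an interval in fold from 0.596 to 1.07. With total counts in place of TMM, the log2 values were -0.014 for miR-181b and -0.11 for miR-181c. The 95% intervals of the main arms with TMM thus end at 1.39-fold on the upper side and 0.596-fold on the lower side, and a p above the threshold does not show that the groups were alike within these bounds.

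The opposite arms had wider intervals. Their log2 fold changes were 0.29 for miR-181a-1*, -0.29 for miR-181a-2*, -0.47 for miR-181b-1* and -0.13 for miR-181c*, with standard errors from 0.27 to 0.36 and adjusted p-values from 0.39 to 0.76 (edgeR). The value of miR-181a-1* rested on AA library 4, without which it was -0.01. The value of miR-181b-1* was -0.14 without control library 4 and -0.83 without control library 3, where the unadjusted p of edgeR was 0.0375. The value of miR-181a-2* was -0.15 without control library 4 and -0.61 without AA library 4. The value of miR-181c* was -0.0044 without control library 4 and -0.46 without AA library 4.

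**Figure D2:**
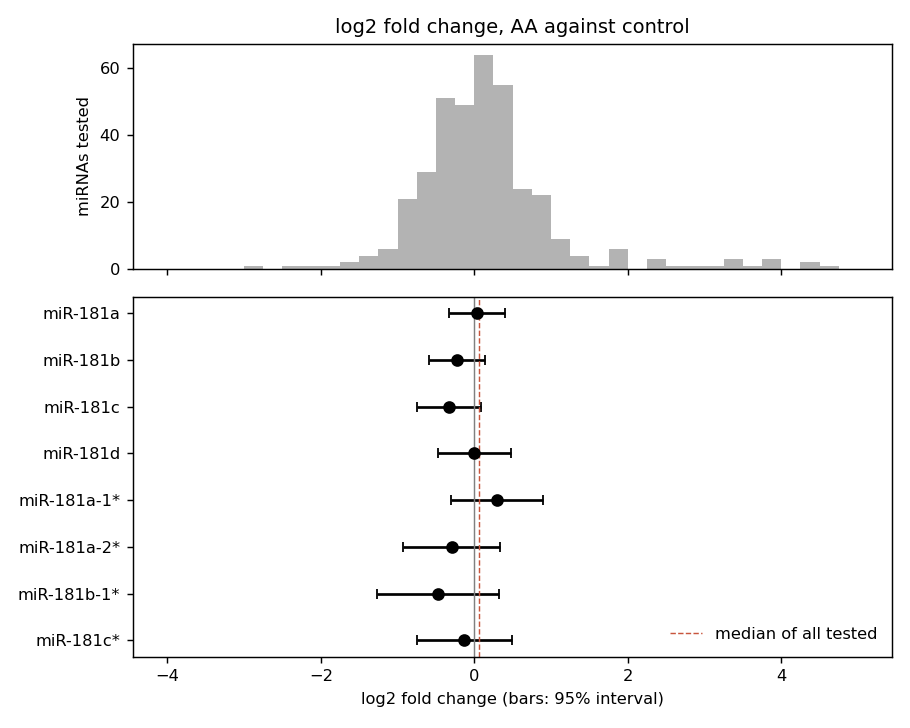
Upper panel, the distribution of the log2 fold change of AA over control for the 367 miRNAs tested. Lower panel, the same measure for the 8 tested miR-181 rows with 95% intervals, with the median of all tested miRNAs (0.06) as a dashed line. All 8 intervals include 0.

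The make-up of the family was compared within each library, by shares that need no scaling between libraries. The summed level of the 4 main arms does depend on the scaling. It was 1110, 983, 1037 and 875 CPM in the control libraries and 875, 1020, 1136 and 857 CPM in the AA libraries. The means were 1001 ± 98.9 and 972 ± 132 CPM (SD, n = 4 each, control and AA). All 9 rows took 0.0811% to 0.126% of the reads of a library, without scaling. The means of this share went the other way, at 0.0958% ± 0.0120 (control) and 0.108% ± 0.0192 (AA), and the groups overlapped in both measures. miR-181a made up 62.6%, 62.7%, 63.1% and 61.0% of the main-arm reads in the control libraries and 65.4%, 64.7%, 68.3% and 65.0% in the AA libraries. Each AA library lay above each control library for this share, which was not tested. Such separation was common in these libraries, at 24.3% of all tested miRNAs by CPM and 28.1% of the ratios between pairs of miRNAs. miR-181b made up 19.1% ± 0.743 of the control reads and 16.9% ± 1.36 of the AA reads, miR-181c 9.18% ± 1.94 and 7.49% ± 0.817, and miR-181d 9.39% ± 1.06 and 9.73% ± 0.871 (SD, n = 4 each). These 3 shares overlapped between the groups.

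**Figure D3:**
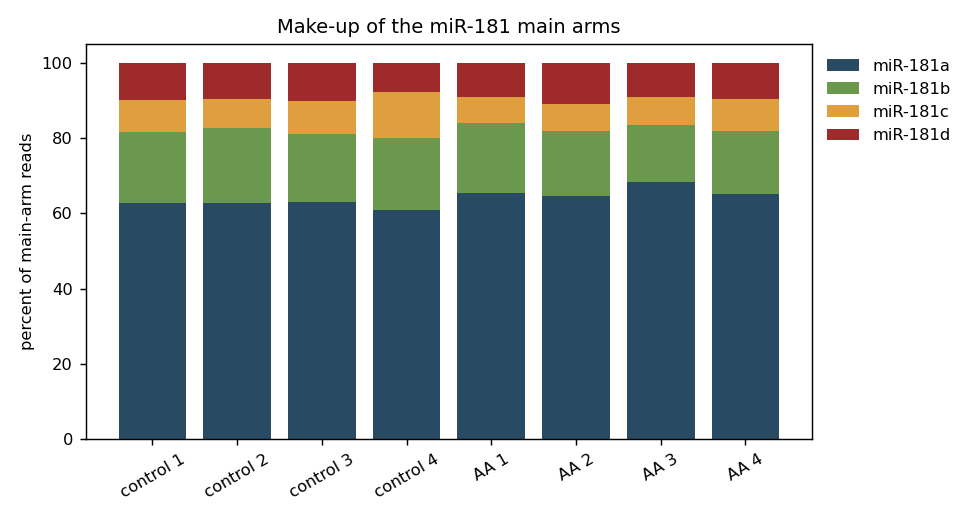
Share of the 4 main arms, in percent of their summed reads, in each of the 8 libraries, starting at 0. miR-181a takes 61.0% to 63.1% in the control libraries and 64.7% to 68.3% in the AA libraries.

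The ratios between rows were then tested with the exact permutation test over the 4 AA and 4 control libraries, whose smallest two-sided p is 0.0286. Of 13 ratios, 11 had enough reads, namely 4 of an opposite arm to its main arm, 6 between main arms and 1 between opposite arms. In 2 of the 11 the groups did not overlap, beside 28.1% of the ratios between all pairs of miRNAs with at least 10 reads in each library. No ratio had an adjusted p under 0.05 over the 11, and the smallest adjusted p was 0.16 (exact permutation test, two-sided). The 2 ratios without overlap were both at the smallest p that the test allows. With only 2 ratios there, the adjustment over 11 could not go under 0.05, whatever the size of their differences.

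The first of the 2 was the ratio of miR-181a to miR-181b, members that lie beside each other in both of their hairpin pairs. The ratio was 3.28, 3.14, 3.48 and 3.19 in the control libraries and 3.54, 3.77, 4.49 and 3.88 in the AA libraries. The highest control value and the lowest AA value were close to each other. Any reads of miR-181a or miR-181b counted on the other row would enter this ratio. Reads exchanged between the rows of miR-181b and miR-181d, which are closer in sequence, would enter it too. The means were 3.27 ± 0.148 and 3.92 ± 0.407 (SD, n = 4 each), a difference of 0.26 on the log2 scale (standard error 0.08, p = 0.0286, adjusted p = 0.16, exact permutation test).

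The second was the ratio of miR-181a-1* to miR-181a-2*, the opposite arms of the chromosome 13 and the chromosome 3 hairpin of miR-181a. It was 2.78, 1.93, 2.48 and 2.25 in the control libraries and 4.24, 2.90, 3.33 and 3.45 in the AA libraries, from 41 to 86 reads of miR-181a-2* per library. Any reads of miR-181c* counted on miR-181a-1* would enter this ratio. The lowest AA value was just above the highest control value. The means were 2.36 ± 0.362 and 3.48 ± 0.561 (SD, n = 4 each), and the difference was 0.56 on the log2 scale (standard error 0.16, p = 0.0286, adjusted p = 0.16, exact permutation test). The corresponding ratio for the miR-181b hairpins was not tested because of the few reads of miR-181b-2*.

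The other 5 ratios between main arms overlapped between the groups. miR-181a to miR-181c was 5.06 to 8.10 in the control libraries and 7.48 to 9.49 in the AA libraries (p = 0.0571, adjusted p = 0.21, exact permutation test). miR-181a to miR-181d was 6.70 ± 0.727 and 6.82 ± 0.672 (SD, n = 4 each), a log2 difference of 0.03 with a standard error of 0.11. miR-181c and miR-181d, which lie 170 bases apart, had a ratio of 0.807 to 0.855 in 3 control libraries, 1.53 in control library 4 and 0.643 to 0.912 in the AA libraries. Control library 4 was thus the only library with more reads of miR-181c than of miR-181d.

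The opposite arms had few reads beside the main arms. miR-181c*, from a hairpin whose main arm has 1 locus, had 6.10% ± 0.758 (control) and 6.98% ± 1.70 (AA) of the reads of both arms (SD, n = 4 each). The main-arm reads of miR-181a and miR-181b are pooled over 2 hairpins, so that their percentages are not parts of a hairpin and cannot be ranked against that of miR-181c*. Of the summed reads of the named arm and miR-181a, miR-181a-1* took 1.70% ± 0.491 and 2.04% ± 0.825, and miR-181a-2* took 0.745% ± 0.264 and 0.590% ± 0.220 (SD, n = 4 each). Beside miR-181b, miR-181b-1* took 1.82% ± 1.01 and 1.53% ± 0.492. The 4 ratios of opposite to main arm had p-values from 0.40 to 0.77 (exact permutation test, two-sided), and their groups overlapped.

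**Figure D4:**
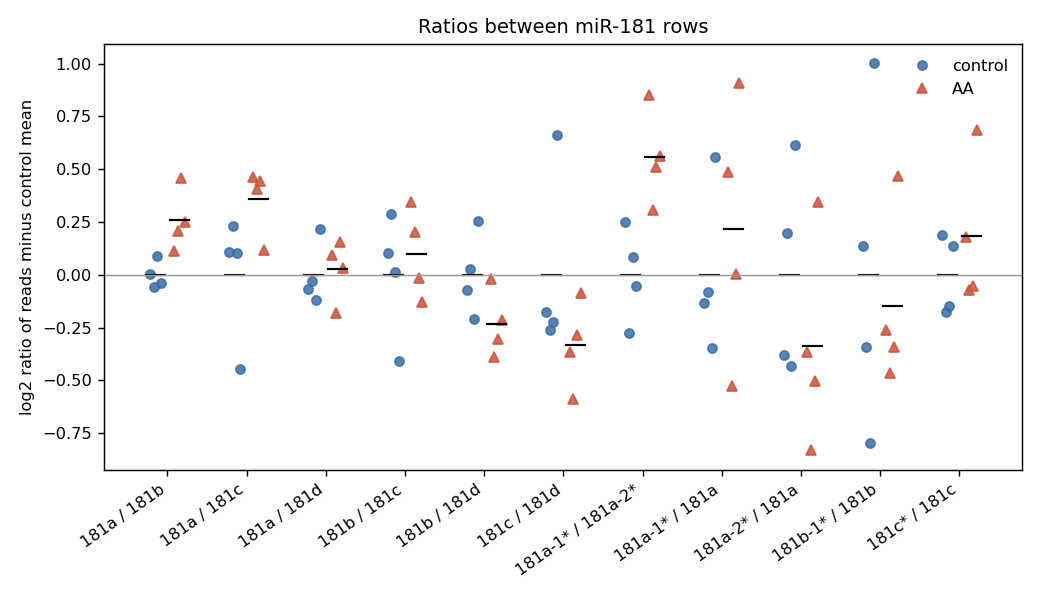
Ratios of reads between miR-181 rows in each library, as log2 values minus the control mean, for control (circles) and AA (triangles), with group means as lines. The groups separate for miR-181a to miR-181b and for miR-181a-1* to miR-181a-2*, and overlap in the other 9 ratios.

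The miRNAs most like each main arm were taken as the 3 with the smallest root mean square difference in log2 CPM over the 8 libraries, after each profile was centered at its mean. For miR-181a these were miR-29a, miR-33* and miR-130a, with differences of 0.05, 0.08 and 0.11. For miR-181b these were miR-28*, miR-28 and miR-598-3p (0.05, 0.08 and 0.09). miR-181c was closest to miR-26b, miR-26a and miR-139-5p (0.14, 0.14 and 0.15), and miR-181d to miR-365, miR-33* and miR-301a (0.10, 0.11 and 0.12). Within the family the differences ran from 0.13 between miR-181a and miR-181d to 0.34 between miR-181c and miR-181d. The median difference from a main arm to all tested miRNAs was 0.43 to 0.49.

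Other miRNAs moved in the same kidneys, and their lists were chosen with earlier results of these data known. A bulk kidney sample cannot tell a change in the number of cells of a type from a change in the RNA per cell. Of the leukocyte miRNAs, 3 of 6 tested rose (miR-142-3p, miR-146b and miR-223; edgeR, adjusted p under 0.05), beside 10.4% of all tested miRNAs that were called higher. miR-150 (log2 fold change 0.58), miR-142-5p (0.30) and miR-146a (-0.09) were not called, and miR-155, also on the list, had no row. The median log2 fold change of the 6 was 0.80. Their summed level was 2468 to 3557 CPM among the controls and 4259 to 8104 CPM among the AA libraries. Of the miRNAs linked to TGF-β and fibrosis, 3 of 8 rose (miR-21, miR-21* and miR-199a-3p), with a median of 0.57. miR-21 and miR-21* are arms of the same hairpin. Those not called were miR-199a-5p (0.80), miR-214 (0.50), miR-29b (0.21), miR-29a (0.04) and miR-29c (-0.13). Of 4 tested miRNAs studied in T lymphocytes or NF-κB signaling besides miR-181, namely miR-17-5p, miR-92a, miR-146a and miR-150, none was called by edgeR, and the median was 0.30.

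Of the nephron epithelium miRNAs, 2 of 11 fell (miR-194 and miR-204), beside 5.99% of all tested miRNAs called lower, with a median of -0.27. The adjusted p of miR-194 was 0.0499 (edgeR), just under the threshold. Of the 11, 9 had a log2 fold change below 0 and 2 above 0 (miR-200c at 0.42 and miR-141 at 0.13). Neither the 2 endothelial rows (miR-126 and miR-126*, median -0.38) nor the 2 red blood cell rows (miR-144 and miR-451, median -0.61) were called. The part of these cell types in the levels of the miR-181 rows was not tested.

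A sample label names the tissue as liver, while the study and the series text name the kidney. The kidney miRNAs (miR-10a-5p, miR-10b, miR-30a, miR-192, miR-194 and miR-204) summed to 185962 to 299027 CPM per library. The largest parts were miR-30a and miR-10a-5p, with control means of 125631 and 100521 CPM, while miR-204 and miR-10b had 30.3 and 14.8 CPM. The liver miRNA miR-122 and its opposite arm together were at 0.696 to 539 CPM, with the highest value in AA library 2. The sum of the kidney miRNAs was thus far above that of the liver miRNAs in each library, though not each kidney miRNA was. How far the miRNAs in this sum are particular to the kidney was not tested. In AA library 2 the 4 main arms of miR-181 were at 1020 CPM, within the range of the other libraries.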

How the data were processed

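Small RNA libraries from 4 AA and 4 control kidneys were read on the Illumina Genome Analyzer II. The deposited values are raw counts for each known miRNA, without normalization, from reads mapped by the authors with Bowtie in miRanalyzer to miRBase; the submitters' processing notes also name DESeq. The mismatches allowed in mapping to known rat miRNAs are not given in the sources used here. Titles gave group and number. Libraries of a group were distinct (chi-square per degree of freedom at least 445). The labels do not tie libraries to litters or batches.

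Counts were compared with edgeR 4.0.16 in R 4.3.3 (glmQLFit, glmQLFTest, TMM, Benjamini-Hochberg) over the 367 miRNAs that reached 10 reads in 4 or more libraries. The step was tested on simulated data. Standard errors are the log2 fold change over the square root of F, and 95% intervals use the matching t distribution. Ratios had 0.5 read added for the test. Members, lists and the rule for named miRNAs (all members, and the 3 closest profiles per main arm) were chosen with earlier results of these data known. Alternatives were DESeq2 1.42.0, other scalings and filters, a replicate block and libraries left out.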

Additional observations from a re-analysis of the deposited data

Results flagged for a closer look

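Of 38 groups of 4 values examined over the levels and ratios of the miR-181 rows, 3 had a value far from the other 3, and about 2 would do so by chance. miR-181b-1* was at 3.32 CPM in AA library 4 and at 2.12 to 2.27 CPM in the other AA libraries. The ratio of miR-181b-1* to miR-181b was 0.0231 in AA library 4 and 0.0121 to 0.0139 in the other AA libraries, so that the same reads of miR-181b-1* underlie both values. The ratio of miR-181c to miR-181d was 1.53 in control library 4 and 0.807 to 0.855 in the other control libraries, from 1295 reads of miR-181c and 844 of miR-181d. The source of these values was not tested.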

How the results depend on the processing

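No miR-181 row was called in any of the 15 alternative fits. For miR-181a, the log2 fold change turned to -0.015 both with DESeq2 size factors and with the DESeq2 Wald test. For miR-181d, it turned to 0.21 with total counts, 0.00332 without a filter on reads, 0.033 with at least 10 reads in all 8 libraries and 0.00710 with the replicate block. For miR-181c* it turned to 0.088 with total counts, and with that scaling it shrank to -0.014 for miR-181b and -0.11 for miR-181c. The shift was not particular to these rows, since the median over all tested miRNAs went from 0.06 with TMM to 0.27 with total counts. The cause of the difference between the scalings was not tested. With 1 library left out at a time, the log2 fold change ran from -0.063 to 0.092 for miR-181a, from -0.34 to -0.17 for miR-181b, from -0.46 to -0.25 for miR-181c, from -0.16 to 0.073 for miR-181d from -0.015 to 0.42 for miR-181a-1*, from -0.61 to -0.15 for miR-181a-2*, from -0.83 to -0.14 for miR-181b-1* and from -0.46 to -0.0044 for miR-181c*. Over all miRNAs, the count of calls was 60, and 35 to 51 with 1 library left out, where each fit has fewer samples (35 without control library 2 and 37 without control library 1).

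The ratio of miR-181a to miR-181b differed by 0.19 to 0.31 on the log2 scale with 1 library left out, and that of miR-181a-1* to miR-181a-2* by 0.46 to 0.64. These tests cannot go below p = 0.0571 by the exact permutation test and say nothing about stability. Without both libraries numbered 4, a setting chosen after the data were seen, the 2 differences were 0.25 and 0.54 (p = 0.10 each, exact permutation test). This is the smallest two-sided p that the remaining libraries allow, so that it does not show weaker differences. With 1 library left out, the difference ran from -0.012 to 0.47 for miR-181a-1* to miR-181a (-0.012 without AA library 4), from -0.41 to 0.18 for miR-181b-1* to miR-181b (0.18 without control library 4), from -0.018 to 0.099 for miR-181a to miR-181d and from -0.036 to 0.20 for miR-181b to miR-181c (-0.036 without control library 4).

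The numbers in the titles gave correlations of 0.049, 0.198, 0.145 and 0.351 between the deviations of same-numbered libraries, across miRNAs, which are not independent. They were not taken as pairs, since 1 value was under 0.1, and control library 1 did not correlate best with its own number. With the replicate block 78 miRNAs were called, none of them a miR-181 row, and sign flips of same-numbered pairs gave p = 0.125 for both ratios, the smallest that 4 pairs allow (exact permutation test). The mean differences of 0.26 and 0.56 are the same with or without pairing by construction, so that this says nothing about stability. The 29 to 297 reads of the opposite arms limit what could be seen for them.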

Other observations

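The opposite arms of the family were highest against their main arms in the libraries numbered 4. This was seen for 3 of the 4 arm pairs in the control group and for 4 of 4 in the AA group, with miR-181c* in control library 1 as the exception. The pairs of miR-181a-1* and miR-181a-2* share the main arm miR-181a, so that the 4 pairs are not separate observations. miR-181a was lowest within its group in both libraries numbered 4, at 534 CPM (control) and 557 CPM (AA). Among 91 other arm pairs of the table, the library numbered 4 held the highest ratio in 40.7% in the control group and in 39.6% in the AA group. The share of all reads on rows named with an asterisk was highest in control library 4 within its group, at 2.40%, and lowest in AA library 4 within its group, at 1.70%. This share includes miR-140*, which was at 14922 CPM in control library 4 and 6951 CPM in AA library 4, beside 294 and 154 CPM of miR-140. miR-140* was itself highest and lowest in these libraries within the groups, so that the share does not stand for the rarer arms in general. The pattern of the libraries numbered 4 was noticed in the data before it was counted, and its source was not tested.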
